A study of Mus musculus with 4 samples.

Results

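The 7 genes described here encode receptors, an enzyme and a nuclear factor that mark restrained or exhausted lymphocytes beside PD-1: Lag3, Havcr2 (which encodes TIM-3), Tigit, Ctla4, Cd160, Entpd1 (which encodes CD39) and Tox. They were chosen by symbol, and all 7 were found among the 31253 features of the deposited tables. The cells were CD45+ immune cells sorted from subcutaneous MC38 tumours, which grow from a mouse colon adenocarcinoma line, and were read by droplet single-cell RNA sequencing. Mice were 8 weeks old when the tumour cells were injected and tumours were taken on day 16. There were 4 libraries, 2 from mice labelled WT and 2 from mice labelled cKO for Ufl1, the ligase of the UFM1 conjugation system, and no treatment beyond the tumour was given to either group. The series title places the loss of Ufl1 in T cells and names PD-1 as a protein that UFM1 is attached to, so the comparison of the groups asks whether the other checkpoint genes differ too. Neither the Cre driver nor the removed exons nor the strain is given in the sources used here. No label ties a library to an animal of its own, and p-values therefore measure the spread between libraries, which may be technical.

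Inhibitory receptors damp the signal of the T cell receptor or of activating NK receptors when they meet a ligand on another cell. LAG-3 binds MHC class II, TIM-3 binds galectin 9 and other ligands, TIGIT competes with the activating receptor CD226 for the poliovirus receptor, CTLA-4 competes with CD28 for CD80 and CD86, and CD160 binds the herpesvirus entry mediator encoded by Tnfrsf14. CD39 breaks down extracellular ATP on the way to adenosine, and TOX is a DNA-binding protein that is needed for the exhausted state of chronically stimulated CD8 T cells. In tumours, regulatory T cells (Treg), which are marked by Foxp3 and suppress other T cells, and exhausted CD8 T cells are known to carry several of these proteins at a time.

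The genes lie apart in the genome (GENCODE M21, GRCm38). Lag3 lies at chr6:124904361-124911705 on the minus strand beside Cd4, Havcr2 at chr11:46454935-46481255 on the plus strand, and Tigit at chr16:43648867-43664146 on the minus strand. Ctla4 lies at chr1:60887000-60915832 on the plus strand between Cd28 and Icos. Cd160 lies at chr3:96798763-96829351 on the minus strand and overlaps Pdzk1 on the other strand, and Tox at chr4:6686353-6991557 on the minus strand overlaps the antisense gene Gm11802. Entpd1 lies at chr19:40612366-40741602 on the plus strand. Pdzk1 and Gm11802 are counted as features of their own, and whether counting used strand is not given in the sources used here, so reads in the overlaps could be divided differently.

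RefSeq promoter windows (GRCm38.p6) matched 5 of the 7 genes, all but Lag3 and Tox, and 4 are shown because these receptors had unlike patterns across cell types. Each is the 250 bases before an annotated start, 5′ to 3′ on the gene's strand, and capitals mark matches on either strand to GGAAA (the core that NFAT proteins bind), TGANTCA (AP-1) and TGTGGT (RUNX). The windows are Havcr2 at chr11:46454681-46454930 (plus strand), Tigit at chr16:43664185-43664434 (minus strand), Ctla4 at chr1:60908775-60909024 (plus strand) and Cd160 at chr3:96829352-96829601 (minus strand).
Havcr2: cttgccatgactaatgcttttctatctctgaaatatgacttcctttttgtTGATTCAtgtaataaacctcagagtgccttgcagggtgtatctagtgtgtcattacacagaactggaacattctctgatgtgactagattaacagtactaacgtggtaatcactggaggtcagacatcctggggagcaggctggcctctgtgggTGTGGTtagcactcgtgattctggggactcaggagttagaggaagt
Tigit: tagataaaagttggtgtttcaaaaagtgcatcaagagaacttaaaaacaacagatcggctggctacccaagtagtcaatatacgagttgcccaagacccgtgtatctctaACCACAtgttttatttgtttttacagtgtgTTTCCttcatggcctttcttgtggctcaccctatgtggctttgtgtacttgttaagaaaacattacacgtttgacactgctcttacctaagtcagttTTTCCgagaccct
Ctla4: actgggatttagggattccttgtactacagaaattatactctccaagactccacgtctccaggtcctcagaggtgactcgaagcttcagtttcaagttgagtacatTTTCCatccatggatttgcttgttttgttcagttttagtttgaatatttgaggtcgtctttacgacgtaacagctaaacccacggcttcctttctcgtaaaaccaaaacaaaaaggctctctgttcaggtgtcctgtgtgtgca
Cd160: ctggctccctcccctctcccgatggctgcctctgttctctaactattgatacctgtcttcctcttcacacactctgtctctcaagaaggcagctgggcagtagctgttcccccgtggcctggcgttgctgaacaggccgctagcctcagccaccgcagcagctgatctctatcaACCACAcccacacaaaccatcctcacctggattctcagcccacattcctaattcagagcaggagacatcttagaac
The window of Havcr2, a receptor found here in both T cells and myeloid cells, held an AP-1 letter match at −200 to −194 and a RUNX match at −46 to −41, where −1 is the base before the start. That of Tigit held 2 NFAT core matches and 1 RUNX match, that of Ctla4 held 1 NFAT core match, and that of Cd160 held 1 RUNX match. A second RefSeq window of Cd160, at another start (chr3:96814522-96814771), held 1 NFAT core and 1 RUNX match and is not shown. No 2 of the motifs overlapped in these windows. Of all 32851 RefSeq windows of this length, 55.6% held GGAAA, 6.75% TGANTCA and 14% TGTGGT, so a GGAAA match is common. A match is a match of letters, and a window without one says nothing about binding.

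The libraries held 64141857 to 79747752 UMIs (unique molecular identifiers, each standing for 1 captured transcript). Of 32801 barcodes, 30279 were kept as cells and 19999 of these fell into a gated cell type, each set by UMIs of a few marker genes that include none of the 7. The 12 types with at least 20 cells in every library were used, together with all T cells as 1 group, and their check markers were present. Those of T cells summed to 782 to 910 CPM (a gene's UMIs divided by all UMIs of the type in a library, times 1e6) in all T cells, against 2.64 to 24.9 CPM in plasmacytoid dendritic cells (pDC), which sense viral nucleic acid. cKO replicate 2 stood apart with 298 CPM of Xist against 0.126 to 0.904 CPM in the other libraries, and 12 UMIs of the Y-linked Ddx3y against 3270 to 3923. By these genes its cells read as female and those of the other libraries as male. Sex thus differed within the cKO group, and its part in the results was not tested. WT replicate 1 and cKO replicate 2 shared 479 cell barcodes, and other pairs of libraries 85 to 104. Of the shared barcodes, 322 kept cells were in a gate, and results are given without them where that changed a call. Ufl1 itself was not lower in the libraries labelled cKO, with 15.8 and 17.1 CPM in all T cells of the WT and 15.04 and 20.04 CPM in those of the cKO libraries. Because the removed exons are not given, its UMIs may lie outside them and the level checks neither label.

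Levels are given below as raw CPM, with WT replicates 1 and 2 first and cKO replicates 1 and 2 after them, and with the mean and SD over these 4 libraries. CPM values compare 1 gene between cell types, and not genes with each other, since no length is taken into account.

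Lag3 was found in a lymphocyte and in a dendritic pattern. pDC held 367, 462, 218 and 296 CPM (336 ± 104, SD, n = 4), Treg 112, 267, 228 and 124 CPM (183 ± 76.7) and CD8 T cells, the cytotoxic lineage, 99.5, 193, 193 and 169 CPM (164 ± 44.3). The ranges of these 3 types overlapped, and all of them lay above every other type, the next being Cd209a-type conventional dendritic cells (cDC2) at 33.8 ± 9.07 CPM. Conventional CD4 T cells were those without a Foxp3 UMI, at a median depth of 4989 UMIs. Treg whose Foxp3 was missed could therefore be among them, and their part was not tested. NK cells stood at 30.3 ± 8.21 CPM, conventional CD4 T cells at 21.0 ± 3.73 and gamma-delta T cells at 18.2 ± 4.85. CD4 T cells overlapped both of the others, while every NK library lay above every gamma-delta T library. Macrophages (4.71 ± 1.40 CPM) and monocytes (2.13 ± 0.40 CPM) held little, and their ranges did not overlap.

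Havcr2 was the gene of the 7 whose levels were led by myeloid cells. Monocytes held 166, 148, 147 and 125 CPM (146 ± 16.6), macrophages 125, 96.8, 101 and 119 CPM (110 ± 13.7) and cross-presenting cDC1 cells 95.5, 108, 117 and 104 CPM (106 ± 8.87). Among lymphocytes it was highest in Treg at 86.1 ± 16.3 CPM, then in CD8 T cells at 29.8, 55.0, 57.3 and 53.0 CPM (48.8 ± 12.8). The steps from each of these types to the next were within the spread of the libraries, cDC2 at 61.7 ± 15.3 CPM included. NK cells held only 1.12 to 4.26 CPM from 12 to 22 UMIs per library.

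Tigit kept to lymphocytes. Treg held 457, 599, 459 and 473 CPM (497 ± 68.5), above every other type. CD8 T cells (246, 236, 240 and 225 CPM, 237 ± 8.97) and NK cells (231, 208, 226 and 236 CPM, 225 ± 12.2) could not be told apart by their ranges. Conventional CD4 T cells had 185, 211, 123 and 117 CPM (159 ± 46.2), and gamma-delta T cells 61.6 ± 20.05 CPM. The other 7 types averaged 10.8 CPM or less, and no library of theirs exceeded 26.2 CPM.

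Ctla4 separated the T cell classes in 3 steps whose ranges did not overlap. Treg held 1524, 1905, 1475 and 1481 CPM (1596 ± 207), conventional CD4 T cells 265, 442, 266 and 239 CPM (303 ± 93.6) and CD8 T cells 97.7, 161, 142 and 135 CPM (134 ± 26.6). Outside T cells the highest level was in cDC1 at 38.2, 26.3, 41.0 and 25.2 CPM (32.7 ± 8.09), which overlapped gamma-delta T cells at 31.6 ± 11.7 CPM. cDC2, with 3, 5, 2 and 0 UMIs against 54, 27, 60 and 24 in cDC1, held almost none.

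Cd160 had the narrowest range of carriers. Gamma-delta T cells held 104, 145, 166 and 66.4 CPM (120 ± 44.2), CD8 T cells 92.4, 74.2, 72.3 and 60.1 CPM (74.8 ± 13.4) and NK cells 45.6, 77.0, 60.6 and 50.5 CPM (58.4 ± 13.8), with overlapping ranges. Every other type averaged 4.62 CPM or less, with 1, 1, 8 and 1 UMIs in Treg and 2, 2, 4 and 1 in conventional CD4 T cells.

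Entpd1, the ectoenzyme, was spread over lymphoid and myeloid types. Treg held 72.4, 88.0, 110 and 78.3 CPM (87.1 ± 16.4), macrophages 70.2 ± 5.07, monocytes 55.8 ± 9.41, CD8 T cells 57.9, 47.0, 51.6 and 52.0 CPM (52.1 ± 4.49) and cDC1 48.7 ± 13.7 CPM. Each of these overlapped the next. B cells (11.5 ± 2.51 CPM), migratory dendritic cells (9.74 ± 5.07), which carry Ccr7, and gamma-delta T cells (8.63 ± 3.82) formed a lower group apart from the rest.

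Tox, the nuclear factor, was found here in T cells and NK cells. Treg held 91.0, 102, 111 and 76.7 CPM (95.3 ± 14.95) and CD8 T cells 74.3, 98.98, 105 and 88.7 CPM (91.7 ± 13.4), which overlapped each other and lay above all other types. Gamma-delta T cells (40.4 ± 19.8 CPM), conventional CD4 T cells (28.8 ± 8.41) and NK cells (21.99 ± 1.88) followed, with overlap. No other type averaged more than 1.85 CPM. Migratory dendritic cells had no Tox UMI, with 0 of 94, 63, 66 and 73 cells, which allows shares of up to 3.19%, 4.76%, 4.55% and 4.11% of cells with a UMI (3 counts of the total, counting error only).

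**Figure D1:**
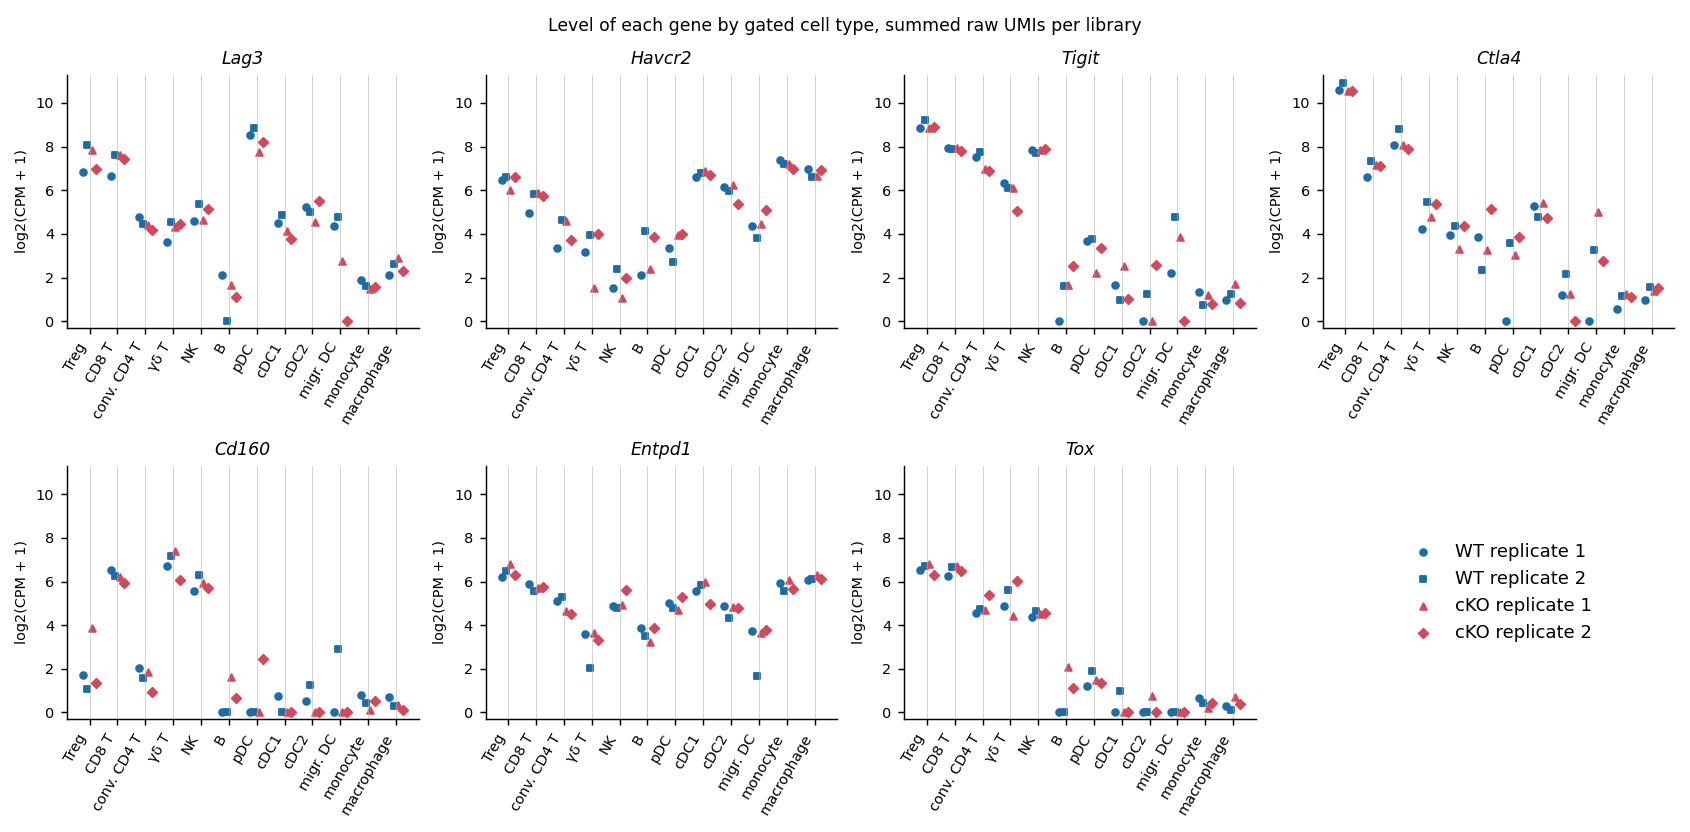
Level of each of the 7 genes as log2(CPM + 1) in 12 gated cell types, 1 point per library (circles and squares WT, triangles and diamonds cKO). Lag3 is high in pDC, Treg and CD8 T cells, Havcr2 in myeloid types and Treg, Tigit in T and NK cells, and Ctla4 in Treg at 1596 ± 207 CPM.

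Cell types were then compared within libraries in 1 fit over all 12 types, with edgeR's quasi-likelihood test and Benjamini-Hochberg adjustment over 9932 genes, the library as a block and a threshold of 0.05. Log2 fold changes are given with their standard errors, and the median over all genes tested was between −0.06 and 0.01 in the 8 contrasts.

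Treg carried more of 6 of the 7 genes than conventional CD4 T cells. Lag3 was higher by 3.08 ± 0.29 on the log2 scale (adjusted p = 7.66e-11), Ctla4 by 2.31 ± 0.21, Havcr2 by 2.15 ± 0.31, Tox by 1.63 ± 0.21, Tigit by 1.58 ± 0.20 and Entpd1 by 1.53 ± 0.22. Cd160, at 0.90 ± 0.89, did not pass (adjusted p = 0.587). Of all genes, 15.2% were called in this contrast, 7.75% higher and 7.45% lower. In the same contrast 3 of 12 other inhibitory receptors were higher and 1 lower, with a median fold of 0.19. Klrg1, an inhibitory lectin-like receptor, was higher by 3.68 ± 0.30 and Pdcd1, which encodes PD-1, by 0.84 ± 0.21, while Cd96, which shares a ligand with TIGIT, was lower at −1.86 ± 0.24. Of 21 measured exhaustion regulators and markers, 6 were higher and 3 lower, with a median of −0.05. Rgs16, a regulator of G protein signalling, was higher by 2.15 ± 0.23, and Tcf7, a factor of naive and stem-like T cells, was lower at −4.15 ± 0.37.

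CD8 T cells differed from conventional CD4 T cells in all 7 genes, 6 higher and 1 lower. Cd160 was higher by 5.16 ± 0.41 (adjusted p = 2.90e-13), Lag3 by 3.04 ± 0.26, Tox by 1.70 ± 0.19, Havcr2 by 1.51 ± 0.27, Entpd1 by 0.90 ± 0.20 and Tigit by 0.64 ± 0.19. Ctla4 was lower, at −1.14 ± 0.22 (adjusted p = 8.35e-05). Of all genes, 26.3% were called, 12.4% higher and 13.9% lower. The call of Tigit was lost without cKO replicate 1, with DESeq2 and without the library block. Among the other inhibitory receptors 3 were higher, among them Pdcd1 by 1.39 ± 0.20 and the NK-type receptor Klrc1 by 4.08 ± 0.31, and 5 lower, among them Btla, another receptor for the herpesvirus entry mediator, at −1.32 ± 0.27. Of the exhaustion regulators and markers 7 were higher and 9 lower, with a median of −0.39.

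Gamma-delta T cells, which recognise antigen with another receptor pair, differed from CD8 T cells in all 7 genes as well. Lag3 was lower at −3.15 ± 0.32, Entpd1 at −2.57 ± 0.32, Havcr2 at −2.30 ± 0.39, Ctla4 at −2.05 ± 0.32, Tigit at −1.93 ± 0.24 and Tox at −1.12 ± 0.20. Cd160 alone was higher, by 0.69 ± 0.21 (adjusted p = 0.0216), and that call was lost without WT replicate 2, without cKO replicate 1, with DESeq2 (adjusted p = 0.109) and without the library block. Of all genes, 10.3% were called, 6.52% higher and 3.8% lower. Pdcd1 was lower too, at −1.16 ± 0.20.

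NK cells were lower than CD8 T cells in 5 of the 7 genes. Havcr2 stood at −4.45 ± 0.25 (adjusted p = 3.98e-19), Ctla4 at −3.09 ± 0.24, Lag3 at −2.44 ± 0.17, Tox at −2.01 ± 0.15 and Entpd1 at −0.64 ± 0.15. Tigit (−0.02 ± 0.17, adjusted p = 0.960) and Cd160 (−0.32 ± 0.18, adjusted p = 0.185) did not pass. Of all genes, 30.8% were called, 14.7% higher and 16.1% lower. Pdcd1 was lower at −7.44 ± 0.27. The NK cells thus held Tigit and Cd160 at levels not told apart from those of CD8 T cells, beside 1.31 to 5.97 CPM of Pdcd1.

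Among myeloid cells 2 to 5 of the genes were called in each contrast. Macrophages, set by complement C1q genes, had more Lag3 than monocytes (1.09 ± 0.32, adjusted p = 0.00428) and less Havcr2 (−0.48 ± 0.12, adjusted p = 0.000975). Between these types 50.3% of all genes were called, 23% higher and 27.3% lower. Lag3 was low in both, at 3.29 to 6.47 CPM in macrophages and 1.79 to 2.71 CPM in monocytes, beside 0 to 3.37 CPM in B cells. The Havcr2 call was lost without cKO replicate 1 and with DESeq2, and without the shared barcodes Entpd1 was called in addition (0.30, adjusted p = 0.0477, against 0.27 and 0.0871 with them). cDC1 were higher than cDC2 in Ctla4 (4.35 ± 0.58, adjusted p = 1.16e-07), Entpd1 (0.92 ± 0.21) and Havcr2 (0.71 ± 0.19), with 28.2% of genes called, 12.1% higher and 16.1% lower. pDC were higher than cDC2 in Lag3 by 3.06 ± 0.22 (adjusted p = 2.98e-15) and in Tigit by 2.81 ± 0.83, the latter from 9, 9, 2 and 6 UMIs against 0, 2, 0 and 5 and lost without WT replicate 1, and lower in Havcr2 at −2.82 ± 0.37. In that contrast 39.8% of genes were called, 17.8% higher and 22% lower.

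Migratory dendritic cells differed from cDC2 in 5 of the 7 genes, 3 lower and 2 higher. Havcr2 stood at −1.47 ± 0.32, Lag3 at −1.38 ± 0.47 and Entpd1 at −1.27 ± 0.35. Tigit was higher by 3.00 ± 0.87 from 3, 12, 7 and 0 UMIs, and Ctla4 by 2.61 ± 0.89 from 0, 4, 16 and 4 UMIs. Of all genes, 44.7% were called, 20.2% higher and 24.6% lower. Calls on such low counts changed with single libraries: Lag3 was lost without cKO replicate 2, Tigit without WT replicate 2 and Ctla4 without cKO replicate 1.

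The genes most like each member across the 12 types were ranked by Pearson's r of log2(CPM + 1) over 8173 genes, as a description. Tigit was closest to Igflr1 (r = 0.98), Cd27 and Rgs16, and Tox to Med14 (0.99), Gprin3 and Cd27, so Cd27, a co-stimulatory receptor, stood in both lists. Ctla4 was closest to Odc1 (0.93), Sv2c and the chemokine receptor gene Ccr8, and Cd160 to the NK receptor gene Klrc1 (0.97), 1810006J02Rik and Samd3. Lag3 was closest to Erg28 (0.94), Cyb561d2 and Fbxl6, Havcr2 to Slc36a3os (0.91), Lamtor5 and Mcub, and Entpd1 to Erp44 (0.89), P4ha1 and Gpi1. Among the 7 themselves Tigit and Tox had r = 0.94 and Havcr2 and Cd160 −0.49. All types come from the same 4 libraries.

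Ligands of the receptors were read in the same cells. H2-Aa, a chain of the MHC class II ligand of LAG-3, stood at 9758 CPM in cDC1 and 9722 CPM in cDC2, and at 1647 CPM in the Lag3-rich pDC. Hmgb1, a nuclear protein that binds TIM-3, was spread over all types with its highest level in CD8 T cells at 727 CPM, and Lgals9, which encodes galectin 9, reached 610 CPM in monocytes. Migratory dendritic cells held the highest mean level of 3 further ligands. Cd86 for CTLA-4 stood at 302 CPM there, with every library above those of other types, while the TIGIT ligand gene Pvr at 57.9 CPM and Tnfrsf14 for CD160 at 9.64 CPM overlapped other types. Nt5e, which encodes the enzyme CD73 that acts after CD39, was highest in Treg at 162 CPM, where Entpd1 was high as well.

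Detection in single cells was compared after each cell had been thinned to 3000 UMIs, which leaves out shallower cells. Free RNA can give detection in cells that do not make a transcript, and its part was not tested. B cells are given as a comparison and not as a floor. The share of B cells with a UMI was 0 to 1.12% for Lag3, 0 to 0.816% for Tigit and 0 to 0.524% for Cd160. It was 0 to 1.05% for Tox, 0 to 3.03% for Havcr2, 1.12% to 4.55% for Entpd1 and 1.52% to 5.71% for Ctla4. Ctla4 had 8, 2, 8 and 57 UMIs in all gated B cells. The median depth before thinning was 3369 UMIs in B cells, 7959 in CD8 T cells and 5452 in Treg. Shares in CD8 T cells were 40.5% to 45.8% for Tigit, 19.2% to 35.3% for Lag3, 17.2% to 29.1% for Ctla4, 19.8% to 24.6% for Tox, 12.6% to 16.2% for Cd160, 11.28% to 15.6% for Entpd1 and 5.42% to 14.9% for Havcr2, all above the B cell shares. Without thinning, Lag3 was found in 31.0% to 55.7% of CD8 T cells.

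Treg had the largest number of the 7 genes per cell. At least 3 were detected in 37.8%, 54.0%, 41.8% and 33.3% of Treg, in 18.2%, 29.0%, 25.6% and 23.5% of CD8 T cells and in 3.88%, 9.94%, 5.02% and 5.56% of conventional CD4 T cells. In NK cells the share was 2.09% to 3.82%, and none of the 7 was detected in 87.8% to 94.4% of B cells. Every library placed Treg above CD8 T cells and CD8 T cells above conventional CD4 T cells.

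**Figure D2:**
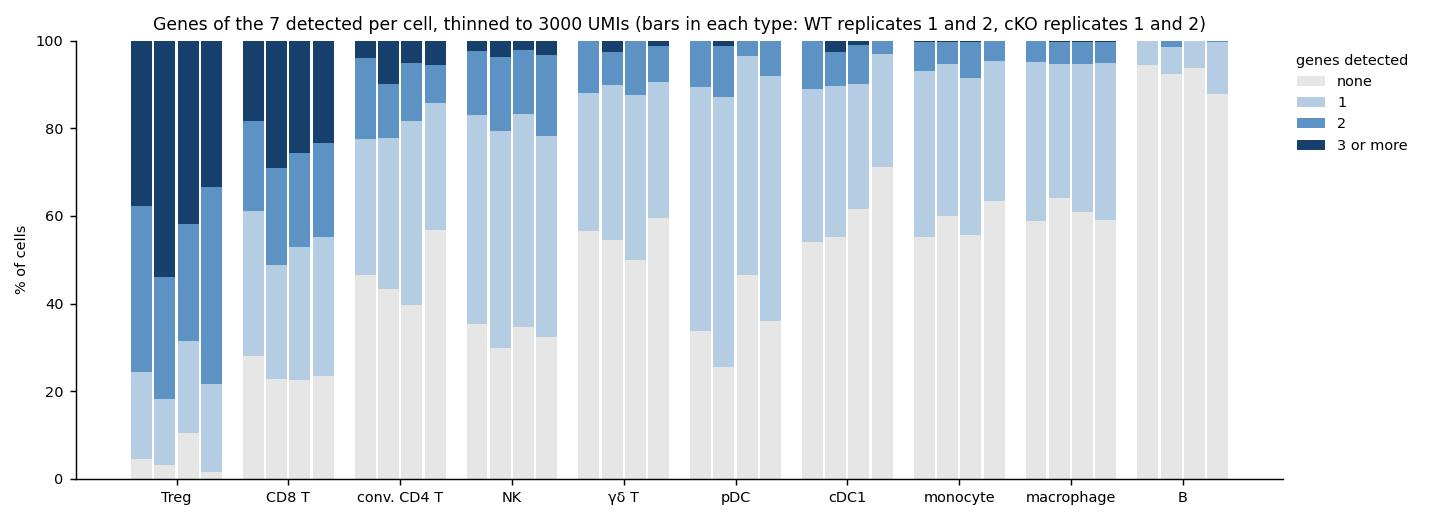
Share of cells (percent, from 0 to 100) with 0, 1, 2 and 3 or more of the 7 genes detected after thinning to 3000 UMIs, by gated type, with 1 bar per library (WT replicates 1 and 2, then cKO replicates 1 and 2). At least 3 genes were detected in 33.3% to 54.0% of Treg and in 18.2% to 29.0% of CD8 T cells.

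In CD8 T cells 6 of the genes were found together in single cells and Cd160 was set apart. For each pair and library an odds ratio was formed that is 1 when the pair shares cells as often as the product of its shares. It was above 1 in all 4 libraries for 14 of the 21 pairs and below 1 in all 4 for 3. Lag3 and Havcr2 had odds ratios of 2.66, 2.95, 3.92 and 2.24, Lag3 and Tigit 2.17, 2.49, 2.04 and 2.55, and Havcr2 and Entpd1 13.3, 3.26, 5.32 and 1.56. Those 14 were all pairs among the other 6 genes but Ctla4 with Tox, which was below 1 in WT replicate 1 (0.65) and 1.73 to 2.48 elsewhere.

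Cd160 went below 1 in all 4 libraries with Lag3 (0.73, 0.63, 0.77 and 0.52), with Havcr2 (0.86, 0.43, 0.79 and 0.60) and with Entpd1 (0.81, 0.47, 0.74 and 0.82). Its other 3 pairs, with Tigit, Ctla4 and Tox, were above 1 in WT replicate 1 (1.43, 1.44 and 2.15) and below 1 in the other 3 libraries. WT replicate 1 also held the lowest levels of Lag3, Havcr2, Ctla4 and Tox in CD8 T cells. The 3 pairs that were below 1 everywhere shared 52, 17 and 21 cells over the 4 libraries, against 71.2, 29.9 and 30.9 at the product of the shares. Without thinning, and with thinning to 1500 UMIs, no pair was below 1 in all 4 libraries, while 16 and 11 were above.

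**Figure D3:**
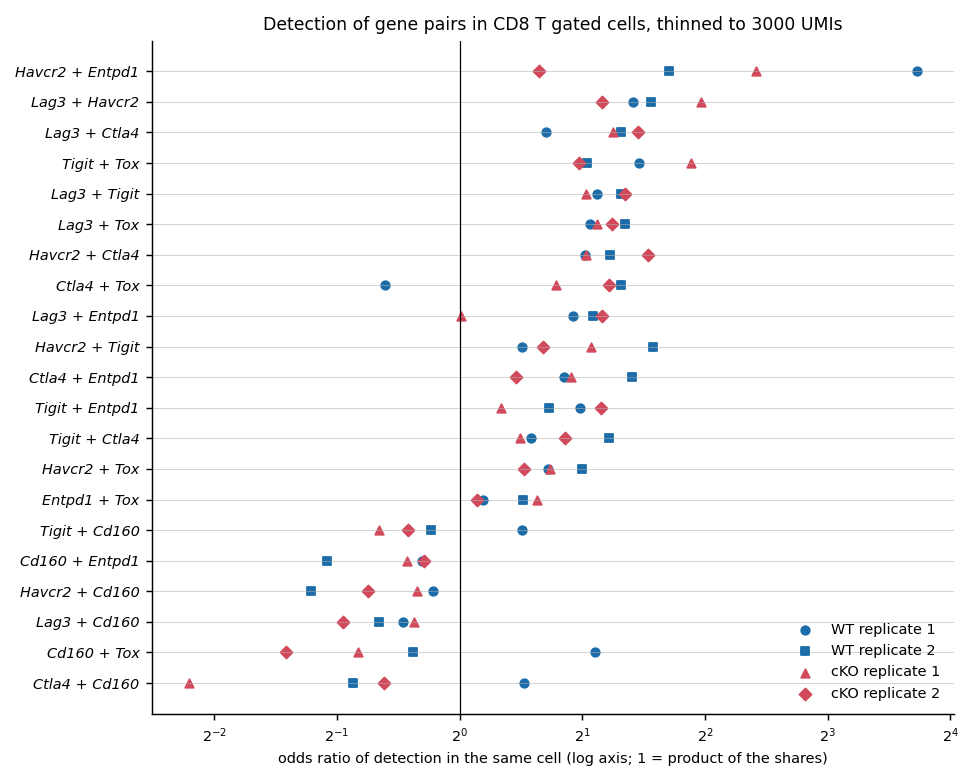
Odds ratio of detecting 2 genes in the same CD8 T cell (log axis, 1 marks the product of the shares) for the 21 pairs of the 7 genes, 1 point per library, after thinning to 3000 UMIs. 14 pairs lie above 1 in all 4 libraries, and Cd160 with Lag3, Havcr2 and Entpd1 lies below 1 in all 4.

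Other lymphocytes showed parts of this pattern. In Treg 6 of 15 pairs that could be read (at least 5 cells at the product of the shares) were above 1 in all 4 libraries, such as Lag3 with Tigit (6.43, 3.50, 4.33 and 4.03), and none below. In conventional CD4 T cells 7 of 9 were above, where Lag3 with Tigit was found in 23 cells against 6.72 at the product of the shares. Treg whose Foxp3 was missed could be among these cells, and their part was not tested. In NK cells 3 of 16 were above and 1 below, which was again Cd160 with Entpd1 (0.41, 0.69, 0.46 and 0.64). In macrophages 0 of 3 pairs were above, and in monocytes 2 of 4.

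CD8 T cells were also divided by whether a Pdcd1 UMI was present, which gave 93, 448, 131 and 351 cells with and 133, 258, 80 and 260 without, as a description of co-detection. Cells with Pdcd1 were deeper, at a median of 6913 to 9848 UMIs against 5529 to 7331. CPM takes the total into account for the 7 genes but not for the split. The split used unthinned UMIs, so a shallow cell could miss its Pdcd1. After thinning to 3000 UMIs, the odds ratio with Pdcd1 was above 1 in all 4 libraries for 4 of the 7 genes. Lag3 stood at 142, 272, 247 and 241 CPM with Pdcd1 and at 57.7, 31.0, 60.4 and 33.9 CPM without, ratios of 2.47, 8.75, 4.09 and 7.10. The ratios were 3.01, 12.7, 6.64 and 6.54 for Havcr2, 3.38, 5.31, 2.31 and 4.46 for Ctla4, and 2.32, 4.11, 3.20 and 3.85 for Tox. For Tigit they were 1.13, 3.21, 1.65 and 2.78 and for Entpd1 1.24, 4.75, 1.71 and 2.13, above 1 in every library. Cd160 ran the other way in 3 of 4 libraries, with 1.77, 0.68, 0.75 and 0.51. WT replicate 1 had the smallest ratio of the 4 for Lag3, Havcr2, Tigit, Entpd1 and Tox, and it alone had more Cd160 in the cells with Pdcd1.

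**Figure D4:**
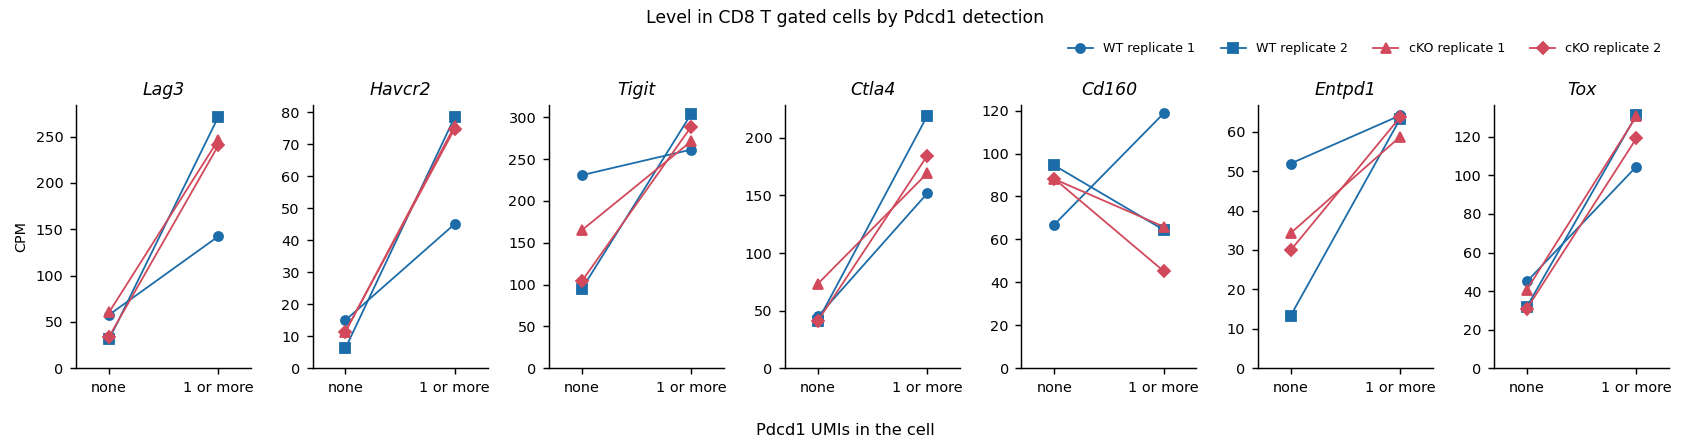
CPM of each of the 7 genes in CD8 T cells without and with a Pdcd1 UMI (unthinned), 1 line per library. Lines rise for Lag3, Havcr2, Tigit, Ctla4, Entpd1 and Tox in all 4 libraries, and fall for Cd160 in 3 of them.

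None of the 7 genes was called between cKO and WT in any cell type. Of 91 combinations of gene and type (12 types and all T cells), 62 passed the filter on low counts, and edgeR's quasi-likelihood test called 0 of them after adjustment over all genes, as did DESeq2. At an unadjusted p under 0.05 there were 6. Among all genes that threshold was passed by 383 of 11099 in all T cells and 208 of 9975 in CD8 T cells. It was passed by 338 of 7798 in conventional CD4 T cells and 361 of 6596 in pDC, with 156 to 552 genes in the other types. The 6 were not tested against these shares. Over all genes and types, 0.0184% of tests were called. WT and cKO libraries lay apart in 14 of the 62 tests, against 31.2% of the tests of all genes. All T cells hold the T subsets again, so these tests are not independent. The mix of subsets also differed between libraries. Of 699, 1532, 762 and 1332 T cells, 226, 706, 211 and 611 were CD8 T cells and 116, 192, 248 and 178 conventional CD4 T cells. The part of this mix in the all T values below, those of Lag3, Tigit and Cd160 included, was not tested.

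In CD8 T cells, 0.0602% of all genes were called and none of the 7. Lag3 stood at 100, 205, 190 and 163 CPM (now normalised by TMM, edgeR's scaling of library sizes), and the cKO libraries lay between the WT libraries, with a log2 fold change of 0.19 ± 0.31 and a 95% interval of −0.54 to 0.91. WT replicate 1 was the lowest of the 4, and the fold was −0.24 without it and 0.82 without WT replicate 2. In all T cells Lag3 stood at 55.5, 156, 105 and 106 CPM (−0.02 ± 0.38), and without WT replicate 2 it was called higher in the cKO libraries (0.92, adjusted p = 0.0326, edgeR). The folds of Havcr2 (0.21, interval −0.46 to 0.89), Tox (0.04, −0.45 to 0.54), Ctla4 (−0.02, −0.62 to 0.58), Entpd1 (−0.08, −0.48 to 0.31) and Tigit (−0.13, −0.47 to 0.21) all had intervals that hold 0. These intervals are wide enough to hold changes in either direction. The CD8 groups did not overlap for 2 of the 7, Tigit and Cd160, against 29.6% of all genes. Hbb-bs, a red cell gene, was at 252 CPM in the CD8 T cells of cKO replicate 1 and at 0.432 to 1.76 CPM in the others, and its part was not tested.

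Cd160 had WT and cKO libraries apart in all T and CD8 T cells, without a call. In all T cells it stood at 82.7, 73.0, 57.3 and 53.7 CPM, with a fold of −0.49 ± 0.13 that did not pass the adjustment (adjusted p = 0.999, edgeR). These values also carry the mix of subsets, since conventional CD4 T cells held little Cd160 (2.15 ± 0.92 raw CPM). In CD8 T cells it stood at 92.98, 78.5, 71.3 and 57.9 CPM (−0.41 ± 0.18, adjusted p = 1.00). NK cells and gamma-delta T cells, the other carriers, had overlapping groups (−0.18 ± 0.24 and −0.12 ± 0.41). In all T cells 2 of the 7 genes, Cd160 and Tigit, had groups that did not overlap, against 32.3% of all genes, and 0.0631% of genes were called. Without the shared barcodes the fold in all T cells was −0.43.

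Tigit in conventional CD4 T cells had the smallest unadjusted p of the 62 tests. It stood at 184, 221, 125 and 118 CPM, a fold of −0.74 ± 0.17 (adjusted p = 0.505, edgeR), so the groups did not overlap but the call did not hold after adjustment. Without WT replicate 1 it was called (adjusted p = 0.0209), as was Ctla4 (adjusted p = 0.00135), which over 4 libraries stood at 264, 463, 270 and 240 CPM (−0.52 ± 0.23, adjusted p = 1.00). Without WT replicate 2 the fold of Ctla4 was −0.05 and that of Tigit −0.60, neither called. Entpd1 was at 33.4, 39.8, 24.6 and 21.7 CPM (−0.67 ± 0.28, adjusted p = 1.00) and did not overlap either. Of the 6 genes tested there, 3 had groups apart, against 32.7% of all genes, and 0.0641% of genes were called. Among related genes, Tnfrsf9, a co-stimulatory receptor raised by T cell receptor signals, came nearest at −0.97 ± 0.16 (adjusted p = 0.0880). Genes used here as markers of other cell types also differed between the groups in the same gate. The 5 NK check markers summed to 61, 37.0, 10.5 and 3.75 raw CPM in conventional CD4 T cells (against 1376 to 1718 raw CPM in NK cells), with the groups apart for all 5, Klre1, Klra4 and Klra8 at 0 in cKO replicate 2. The class II gene H2-Aa stood at 219, 422, 886 and 788 TMM-normalised CPM. Whether either came from other cells was not tested. The part of either, or of Treg whose Foxp3 was missed, in the values of Tigit, Ctla4 and Entpd1 was also not tested. The share of cells with a Tigit UMI was 26.2%, 24.6%, 25.6% and 17.9%, with overlap.

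Lag3 in pDC had the next smallest unadjusted p. It stood at 365, 490, 225 and 300 CPM, a fold of −0.70 ± 0.20 (adjusted p = 0.492, edgeR), and the groups did not overlap. The share of pDC with a Lag3 UMI was 64.0% (95% Wilson interval 53.4% to 73.3%), 68.6% (58.2% to 77.4%), 46.4% (34.0% to 59.3%) and 57.3% (46.0% to 67.9%), lower by 14.4 points in the cKO libraries, at the smallest p that an exact permutation test of 2 against 2 allows (p = 0.33, two-sided). Without cKO replicate 2 the fold was −0.93 and called (adjusted p = 0.0267). No gene was called in pDC by edgeR (0% of those tested, 361 at an unadjusted p under 0.05) or DESeq2, and 33.5% of genes had groups apart. The pDC of cKO replicate 2 also held 814 CPM of 5 myeloid gate genes against 115 to 190 CPM in the other libraries, and the part of that in the result was not tested.

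Lag3 in the other dendritic cells, where it was low, did not pass either. In cDC1 it stood at 21.7, 29.3, 17.0 and 12.5 CPM (−0.73 ± 0.32, adjusted p = 0.998). In migratory dendritic cells it had 16, 12, 3 and 0 UMIs (adjusted p = 1.00, edgeR), counts too few for a fold. In cDC2 the groups overlapped, at −0.14 ± 0.28.

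In Treg all 6 tested genes had overlapping groups, with folds from −0.21 to 0.23 and intervals that hold 0, while 28.8% of all genes tested in Treg had groups apart. Ctla4 was found in 91.1%, 91.3%, 79.1% and 94.2% of Treg. In NK cells Entpd1 stood at 27.7, 28.3, 29.3 and 45.8 CPM (0.40 ± 0.20, adjusted p = 0.993, edgeR), so the difference in level came mostly from cKO replicate 2. The share of NK cells with an Entpd1 UMI was 9.37%, 9.13%, 11.1% and 13.9%, higher in both cKO libraries. Tigit in NK cells, at 226, 222, 224 and 230 CPM (0.02 ± 0.12), was the most even of all. In macrophages and monocytes Havcr2 had folds of −0.01 ± 0.17 and −0.20 ± 0.13.

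**Figure D5:**
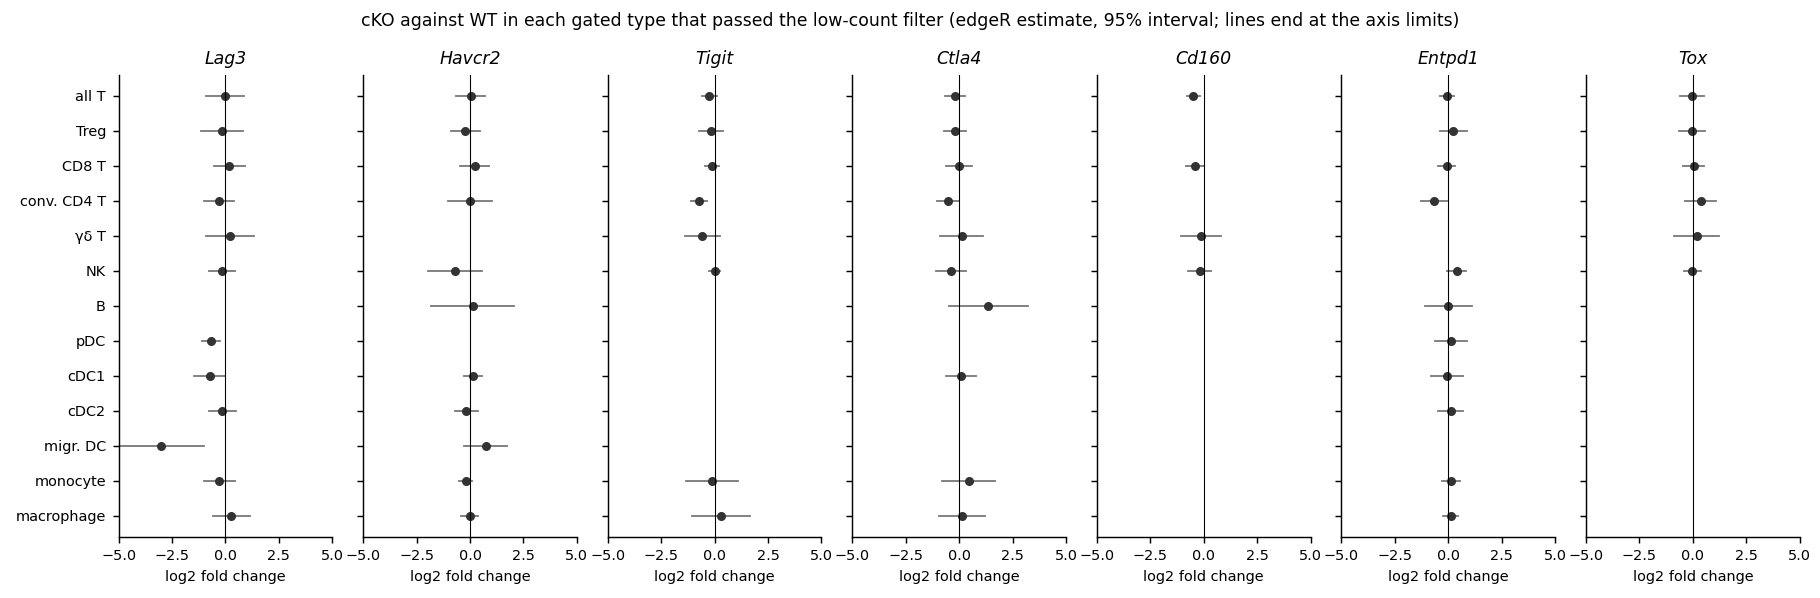
Log2 fold change of cKO against WT (edgeR, points) with its 95% interval (lines, which end at the axis limits) for each of the 7 genes in every gated type where it passed the filter on low counts. Most intervals hold 0, and none of the 62 tests was called; Tigit in conventional CD4 T cells stands at −0.74 ± 0.17 and Lag3 in pDC at −0.70 ± 0.20.

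Whether the cKO effect differed between types was tested as an interaction for Treg against CD8 T, NK against CD8 T and macrophage against monocyte. None of the 7 genes was called in any of them, where 0%, 0.0465% and 0% of all genes were, with 224, 325 and 177 genes at an unadjusted p under 0.05. Nearest were Cd160 in Treg against CD8 T cells (adjusted p = 1.00, edgeR), which rests on 1, 1, 8 and 1 UMIs in Treg, and of Havcr2 in NK against CD8 T cells (−1.10 ± 0.47, adjusted p = 1.00).

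The lists of related genes were read in the same fits. No other inhibitory receptor (12 genes), exhaustion regulator or marker (22), adenosine gene (10) or activating partner that shares those ligands (6) was called in any type where it was tested. Median folds of the 12 receptors were 0.08 in all T and 0.16 in CD8 T cells, those of the exhaustion list 0.04 and −0.01, and those of all genes tested 0.01 and 0.00.

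Of the 17 ligand genes, 10 were tested in all T cells and 10 in CD8 T cells, and in each 3 were higher in the cKO libraries: the class II genes that encode the ligand of LAG-3. H2-Aa in CD8 T cells stood at 27.7, 26.1, 111 and 123 CPM (2.13 ± 0.17, adjusted p = 0.0138), H2-Ab1 at 23.5, 24.6, 161 and 115 CPM (2.501 ± 0.22, adjusted p = 0.0213) and H2-Eb1 at 20.6, 21.0, 121 and 135 CPM (2.62 ± 0.17, adjusted p = 0.00923, edgeR). In all T cells the folds were 1.45 to 1.56 (adjusted p = 0.0169), and those calls were lost without the shared barcodes (folds 1.32 to 1.45, adjusted p = 0.100) and with the crossed replicate block (folds 1.45 to 1.55, adjusted p = 0.0514). That of H2-Ab1 in CD8 T cells was lost without WT replicate 2 (adjusted p = 0.0567). In both groups the calls were lost when cells with high doublet scores were kept, with folds down to 0.28 to 0.50 in CD8 T and 0.56 to 0.65 in all T cells. With 1 UMI more required in each gate the calls were lost too, at folds of 1.77 to 2.36 in CD8 T and 1.53 to 1.66 in all T cells. In conventional CD4 T cells H2-Ab1 stood at 187, 335, 833 and 620 CPM (1.46 ± 0.25, adjusted p = 0.0936) and was not called. Of 5 myeloid gate genes, the sum in CD8 T cells was 86.0, 55.9, 60.6 and 47.2 CPM, not higher in the cKO libraries. The T cell gate admits at most 4 C1q, 1 Csf1r and 10 Lyz2 UMIs per cell, so the gate itself holds this sum low. H2-Aa stood at 9758 CPM in cDC1 and at 6451, 7711, 6667 and 5838 TMM-normalised CPM in B cells. The part of RNA from such cells in the class II values was not tested. In Treg, H2-Aa stood at 77.1, 694, 131 and 2368 CPM, high in replicate 2 of either genotype, with overlapping groups.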

How the data were processed

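Droplet single-cell RNA-seq of CD45+ cells gave 4 libraries, 2 WT and 2 cKO. The authors deposited raw UMI counts per feature and barcode, made with Cell Ranger 6.1.1 per the file headers. CASAVA 1.8, Cell Ranger and Seurat are named in the submitters' processing notes, and the genome build is not given in the sources used here. IDs and symbols are those of the files, and 31184 of 31253 feature IDs matched GENCODE M21.

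Barcodes with under 300 genes or over 15% mitochondrial UMIs were dropped (405). Scrublet's automatic threshold called 0 doublets and was not used. Instead the highest doublet scores were removed at 0.8% of cells for every 1000 cells (2117). Cells were gated by marker UMIs, with at least 3 UMIs of Cd3 genes for T cells, then at least 2 of Cd8a and Cd8b1, 1 of Cd4, 1 of Foxp3 or 2 of Trdc. NK cells needed 2, cDC1 2, cDC2 3, pDC 3 (Siglech with Ccr9 or Tcf4, where Bst2 was planned as well and not used), B cells 5, migratory dendritic cells 8, monocytes 10 and macrophages 20 UMIs of their genes. The gates left 10073 cells in no type and 207 in conflict. The total UMIs per library are given in the text, and intervals and floors cover counting error only.

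UMIs were summed per type and library, so that libraries and not cells are the replicates, and tested with edgeR 4.0.16 (R 4.3.3): TMM, filterByExpr, the quasi-likelihood test and Benjamini-Hochberg adjustment over all genes of a fit at 0.05. DESeq2 1.42.0 was an alternative, as were no filter, other cell filters and gates, doublets kept, blocks and leaving out each library. Standard errors are the fold divided by the square root of F. Co-detection used cells thinned to 3000 UMIs, with 0.5 added to each cell count of an odds ratio. The edgeR step was tested on simulated data. Python 3.11.15, scanpy 1.11.5, scipy 1.17.1 and matplotlib 3.10.9 were used.

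The members, lists and rules were chosen with earlier results of these data known. Named genes are the 7 members in every tested type, the 3 genes most like each in pattern among those with at least 20 CPM in a type, examples of the list genes past the threshold in a comparison or else the 1 with the smallest p, and the ligand of each receptor with the highest level. Hbb-bs and the members called in single alternatives were named after their values were seen.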

Additional observations from a re-analysis of the deposited data

How the results depend on the processing

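Without low-count filtering 2 tests of the 7 genes between cKO and WT were called instead of 0 (Tigit in conventional CD4 T cells and Lag3 in migratory dendritic cells), and 1 to 2 when a library was left out. These were Tigit and Ctla4 in conventional CD4 T cells (without WT replicate 1), Lag3 in all T cells (without WT replicate 2), Ctla4 in B cells (without cKO replicate 1, adjusted p = 0.0304, edgeR) and Lag3 in pDC (without cKO replicate 2). Over all genes and types 20 calls became 1 with 1 UMI more per gate, 13 without the shared barcodes, 48 with DESeq2, 938 without the filter and 228 to 779 when a library was left out (228 and 386 leaving out WT replicate 1 or 2, and 779 and 367 leaving out cKO replicate 1 or 2). The cause was not tested. Same-numbered libraries correlated in their deviations from −0.19 (macrophages) to 0.26 (Treg and monocytes), with 0.20 in all T and CD8 T cells and under 0.1 in most types. The labels pair no libraries, and the numbers were not treated as pairs in the main fits. Cell numbers went with the replicate number in both genotypes for some types. Replicates 1 and 2 held 226 and 706 CD8 T cells in WT and 211 and 611 in cKO. For NK cells the numbers were 1266 and 507 in WT and 1119 and 596 in cKO. A factor shared by same-numbered libraries was therefore possible and was not tested further. With a replicate block 58 genes were called, with crossed replicate pairing 57, and none of the 7 genes in either. At an unadjusted p under 0.05 (edgeR) the replicate block gave 832 genes in all T cells, the crossed block 222 and no block 383. The same counts were 1054, 313 and 552 in monocytes, and 188, 567 and 317 in macrophages, so types went either way. Between types, the count of called genes went from 2 to 1 for macrophages against monocytes with DESeq2 (1 to 2 leaving out a library) and to 3 without the shared barcodes, and from 3 to 5 for pDC against cDC2 with DESeq2 and with doublets kept.

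Folds near 0 changed sign: with 1 UMI more per gate Lag3 (0.069) and Tigit (0.022) in Treg and Tigit in NK cells (−0.014, and −0.012 without the shared barcodes); Ctla4 in CD8 T cells with the replicate block (0.019), the crossed block (0.051) and without the shared barcodes (0.026); Tigit in NK against CD8 T cells with doublets kept (0.0053) and no filter (0.0059). Leaving out a library, cKO folds in Treg ranged from −0.66 to 0.74 for Lag3, −0.41 to 0.13 for Tigit, −0.41 to 0.060 for Ctla4 and −0.28 to 0.18 for Tox. In CD8 T cells they ranged from −0.24 to 0.82 for Lag3, −0.14 to 0.83 for Havcr2, −0.36 to 0.46 for Ctla4 and −0.18 to 0.33 for Tox. Tigit in NK cells ranged from −0.000267 to 0.045, and Tigit in NK against CD8 T cells from −0.059 to 0.012.

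Shares of cells with a UMI, cKO minus WT, reversed in Treg for Entpd1 (2.001 points thinned to 1500 UMIs, 7.99 unthinned, against −2.78) and Tox (−0.930 thinned to 1500, against 4.09). Leaving out a library they ranged from −6.02 to 0.468 for Entpd1, −2.87 to 11.04 for Tox and −12.1 to 3.01 for Ctla4 in Treg, from −6.95 to 0.559 for Havcr2 in monocytes and from −3.58 to 11.9 for Cd160 in gamma-delta T cells. Pairs above 1 in every library went from 7 to 4 in conventional CD4 T cells and from 3 to 1 in NK cells at 1500 UMIs; in NK cells there were 10 unthinned and 3 to 5 leaving out a library. With 2 libraries a group and 49 to 150 Treg per library, the 95% intervals of the cKO folds in Treg reached from −1.13 to 0.85.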

Other observations

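Neutrophils (5, 28, 12 and 26 gated cells) and mast cells with basophils (23, 8, 20 and 14 cells) were too few to test, and their values are given for description. In neutrophils Entpd1, the ectoenzyme that breaks down ATP, stood at 135, 295, 288 and 188 CPM from 5, 31, 21 and 36 UMIs, while the highest library of any tested type was Treg of cKO replicate 1 at 110 CPM. The order of these levels was not tested. Mast cells and basophils had no Entpd1 UMI in any library, and held Havcr2, the TIM-3 gene, at 78.9, 192, 113 and 79.5 CPM. Havcr2 in neutrophils was at 189, 9.52, 151 and 26.1 CPM from 7, 1, 11 and 5 UMIs, so single UMIs set these levels.

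Pdcd1, the PD-1 gene, was read with each of the 7 genes in single cells, and its counts moved with depth. Its odds ratio was above 1 in all 4 libraries with 4 of the 7 in CD8 T cells at 3000 UMIs and with 6 of 7 at 1500 UMIs and unthinned. In conventional CD4 T cells the counts were 5 of 5 readable pairs at 3000, 2 of 3 at 1500 and 6 of 6 unthinned, and in Treg 4, 2 and 5 of 6. Differences between the classes were not tested. With Cd160 in CD8 T cells at 3000 UMIs it was 1.55, 0.55, 0.55 and 0.54, above 1 in WT replicate 1 alone. Adora2a, the adenosine receptor gene downstream of CD39 and CD73, had its highest mean level in migratory dendritic cells at 118 CPM, where Entpd1 was at 9.74 CPM.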
